A study of Rattus norvegicus with 6 samples.

Results

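Genes of 10 plasma proteins, most of them known as products of the liver whose output shifts in the acute phase response, were followed in AR42J cells with and without dexamethasone: C3, Hp, Ttr, Rbp4, Lcn2, Cp, Clu, Serpina1, A2m and Ambp. They were chosen by gene symbol, and all 10 were on the array, with 13 probe sets, among 10411 genes with a probe set of a single symbol. AR42J is a rat cell line derived from a tumour of pancreatic acinar cells, and dexamethasone is a synthetic glucocorticoid. Control cultures (n = 3) and cultures with 100 nM dexamethasone for 48 h (n = 3) were profiled on 1 Affymetrix Rat 230A array each. Every culture came from cells revived at passage 29, spent 24 h in medium with 20% serum and was then held in 5% serum, with or without the hormone. A single line, dose and time were thus sampled, and the number of arrays limits the precision.

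The acute phase response is the change in circulating proteins that follows injury or infection. Interleukin 6 and related cytokines drive it in liver cells through STAT3 and C/EBP transcription factors, and glucocorticoids act together with these cytokines on many of the genes. Proteins whose level rises in plasma, such as complement C3 and haptoglobin, are called positive acute phase proteins, and those whose level falls, such as transthyretin and retinol-binding protein, negative ones. Acinar cells of the pancreas are not a main source of these proteins, although pancreatic cells can express several of them.

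Signals are MAS5 intensities, which are relative to each array's own total, with a trimmed mean of 497.6 to 498.4. A background level was set on each array as the highest signal of its Bacillus subtilis control probe sets (51.7 to 115.9). Log2 changes are dexamethasone minus control with the SE from limma, fitted with the replicate number as a block, and each adjusted p comes from the same limma fit, with Benjamini-Hochberg adjustment over 9520 probe sets. All 11 acinar markers examined, among them Amy2a3, Cpa1 and Cel, were above background on all 6 arrays, with a summed signal of 80989 to 95964 in controls and 117120 to 131050 with dexamethasone. Of 10 of them tested, 7 rose and 0 fell at an adjusted p under 0.05 by limma, and Prss1, a trypsinogen gene, went from 726.1 ± 98.9 to 15480 ± 361 (SD, n = 3). Most of the summed rise lay in Prss1 and Cela2a (mean 4450 to 15480). The means of Cpa1 (19720 to 17050) and Cpb1 (158.4 to 135.0) were lower with dexamethasone. Of 13 hepatocyte markers on the array, 4 were above background on all 6 arrays and 3 (Apoa2, Tdo2 and Hal) on none, and their summed signal was 1357 to 1973 in controls and 4513 to 11743 with dexamethasone. Of the 4 tested, 3 rose. Most of the summed rise lay in F2 (mean 383.1 to 3079), Apoc3 (434.2 to 1996) and Cyp2e1 (112.6 to 1533). The means of Cyp2c11 (175.3 to 163.9) and Fgg (94.7 to 93.6) did not rise, so the sum does not describe the markers as a set. Neither probe set of Alb, which encodes albumin, passed the filter on low signals. The brighter gave 96.1 ± 18.4 and 109.1 ± 40.6, and the other 61.4 ± 19.6 and 124.9 ± 5.1 (SD, n = 3), where the groups did not overlap and 1 of 3 controls was above background. Of 8 macrophage markers, Ptprc, Itgam and C1qb were above background on no array, and the summed signal was 853 to 947 in controls and 748 to 936 with dexamethasone. The 8 stromal markers summed to 958 to 1165 and 1090 to 1208, with Lum above background on no array, and the 3 duct markers to 2889 to 4026 and 795 to 2131. Of the 3 duct markers, all tested, 0 rose and 2 fell. Of the 2 macrophage and 2 stromal markers tested, 0 rose and 0 fell. For comparison, 17.0% of all 7051 genes tested rose and 21.4% fell. The part of any such marker in the results below was not tested, and a change in the share of cells cannot be told apart from a change in RNA per cell. The array of dexamethasone replicate 3 stood apart from the other treated arrays on the second principal component (25.3 against -11.6 and -12.6, 10.0% of the variance), so changes are also given without replicate 3. That fit had 1 residual degree of freedom, and limma's estimate of the prior degrees of freedom was infinite, so that 1 spread was used for all probe sets of like intensity. Its p-values therefore do not measure the replicate error of a single gene, and for the plasma protein genes only its changes are given.

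Promoter sequences, from 250 bases before to 50 after the annotated start, were found in RefSeq (GRCr8) for 7 of the 10 genes, leaving A2m, Clu and Hp. The 4 printed are those of C3, the gene with the largest rise, of Lcn2 and Serpina1, which also rose, and of Ambp, which fell. Each is read 5′ to 3′ along the gene, on the minus strand, at chr9:2201290-2201589 (C3), chr3:36081731-36082030 (Lcn2), chr6:128653076-128653375 (Serpina1) and chr5:81593808-81594107 (Ambp). Capitals mark matches to the motifs searched, on either strand.
C3: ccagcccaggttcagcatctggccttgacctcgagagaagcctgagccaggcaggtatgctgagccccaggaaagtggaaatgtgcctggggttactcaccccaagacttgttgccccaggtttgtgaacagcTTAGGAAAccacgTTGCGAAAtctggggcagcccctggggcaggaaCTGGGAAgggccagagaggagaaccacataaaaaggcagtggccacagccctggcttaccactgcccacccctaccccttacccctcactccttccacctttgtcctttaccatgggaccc
Lcn2: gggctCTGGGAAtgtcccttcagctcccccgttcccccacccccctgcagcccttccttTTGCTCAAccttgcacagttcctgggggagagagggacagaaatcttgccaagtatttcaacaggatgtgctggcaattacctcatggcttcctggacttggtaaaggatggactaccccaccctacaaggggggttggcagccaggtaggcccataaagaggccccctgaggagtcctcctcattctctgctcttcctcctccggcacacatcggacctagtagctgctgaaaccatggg
Serpina1: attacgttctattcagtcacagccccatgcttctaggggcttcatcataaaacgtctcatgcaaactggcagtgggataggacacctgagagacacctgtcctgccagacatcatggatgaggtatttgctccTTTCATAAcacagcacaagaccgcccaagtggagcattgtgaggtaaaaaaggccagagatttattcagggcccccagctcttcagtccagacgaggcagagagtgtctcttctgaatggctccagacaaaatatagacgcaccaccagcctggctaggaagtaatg
Ambp: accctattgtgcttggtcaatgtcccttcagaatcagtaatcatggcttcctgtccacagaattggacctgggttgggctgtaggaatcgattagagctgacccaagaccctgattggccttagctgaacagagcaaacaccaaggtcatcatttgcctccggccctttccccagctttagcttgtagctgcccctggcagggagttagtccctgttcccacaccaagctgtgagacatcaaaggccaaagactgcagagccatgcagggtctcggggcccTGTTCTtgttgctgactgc

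The capitals in C3 are 2 matches to the C/EBP motif TTNNGNAA, at bases -117 to -110 (TTAGGAAA) and -104 to -97 (TTGCGAAA, on both strands), and 1 match to CTGGGAA, the core of the type 2 interleukin 6 element, at -71 to -65. Lcn2 held CTGGGAA at -245 to -239 and a C/EBP match on the opposite strand at -191 to -184, and Serpina1 held a C/EBP match on the opposite strand at -117 to -110. Ambp held TGTTCT, the short site of the glucocorticoid receptor, at 32 to 37 after the start, and none of the other motifs. Of the 7 promoters, 5 held TTNNGNAA (C3, Cp, Lcn2, Rbp4 and Serpina1), against 41.3% of 33469 promoter windows in the table. The promoter of Ttr, which rose more than Lcn2 and Serpina1 but is not printed, held no TTNNGNAA. CTGGGAA was found in 3 (C3, Lcn2 and Ttr, against 11.3%) and TGTTCT in 1 (against 20.7%). The full receptor site, TGTTCT with its inverted copy before it across a gap of 3 bases (0.0149% of windows), the STAT motif TTCNNNGAA (8.87%) and the HNF1 motif (0.00299%) were in none of the 7. TGTTCT is part of the full receptor site, and the other motifs can share bases. Matches describe the letters of these windows and no binding was measured.

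With dexamethasone, 6 of the 10 genes rose (C3, Hp, Ttr, Lcn2, Clu and Serpina1), Ambp fell, A2m did not pass the threshold, and Rbp4 and Cp were too dim to be tested. Among all 7051 genes tested, 17.0% rose and 21.4% fell, and these shares were the same by the fit without pairs, where 5 of the 10 genes rose and 1 fell. C3, Hp and Lcn2 had control means under the filter on low signals (147.6) and entered the test through their treated arrays, so the count over tested members is no support by itself. Of the 8 tested genes, 4 had all treated arrays above all controls and 1 had them all below, against 22.0% and 27.8% of tested probe sets.

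**Figure D1:**
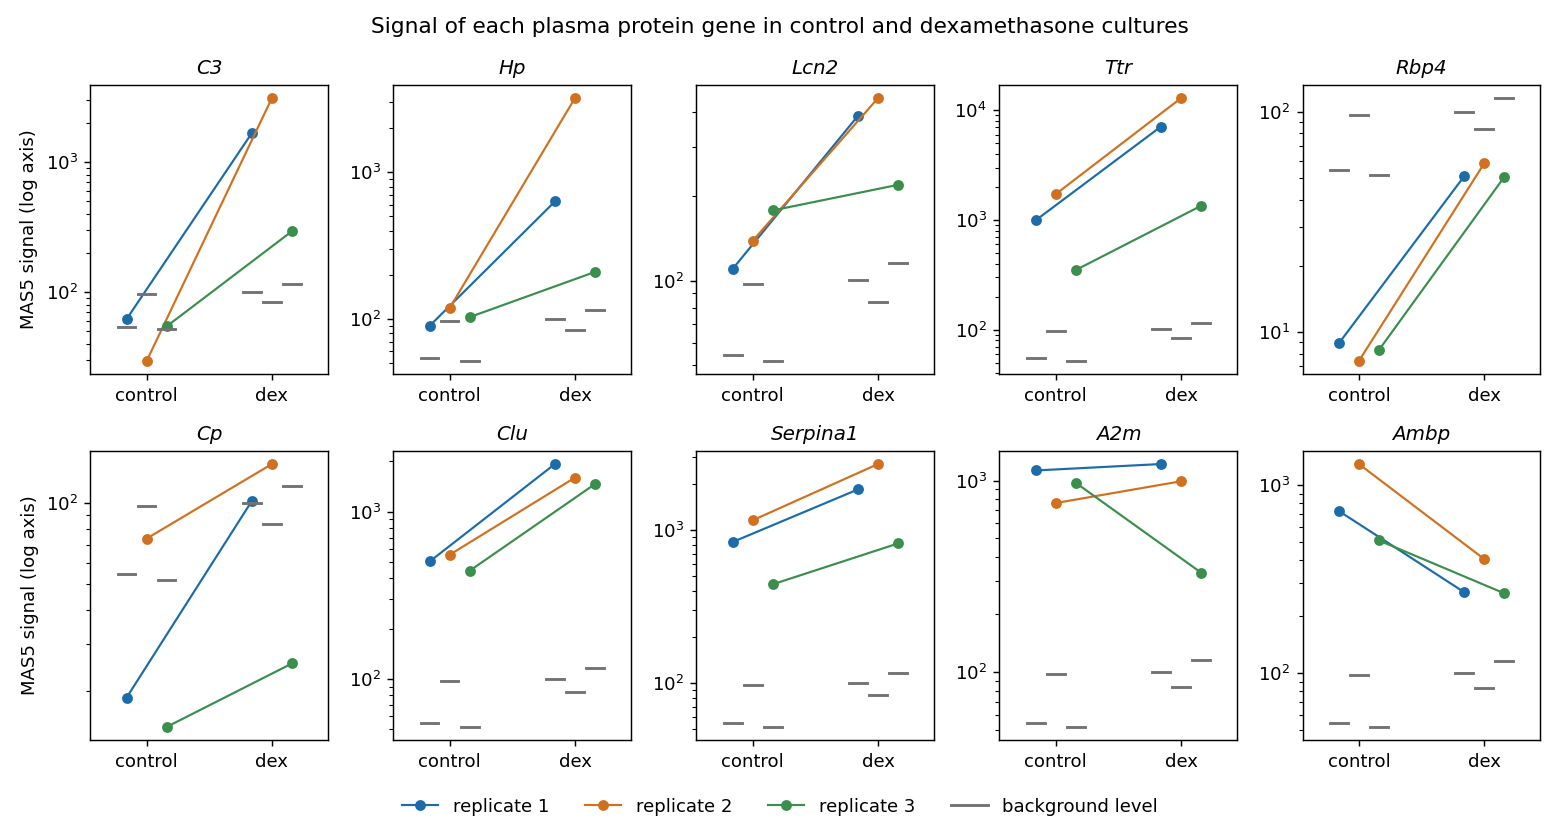
MAS5 signal (log axis, different range in each panel) of the 10 genes in control and dexamethasone cultures, with lines joining the arrays of a replicate number and grey bars at each array's background level. Ttr and Serpina1 lie in the same order in both groups, with replicate 2 highest and replicate 3 lowest, while Rbp4 lies below background on all 6 arrays.

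C3, the central component of complement, had the largest change. Controls 1 to 3 gave signals of 62.2, 29.6 and 54.7, and the treated arrays of replicates 1 to 3 gave 1681, 3123 and 294.9. Every treated array was above every control array, and the treated arrays spanned 10.6-fold, with replicate 3 lowest. The change was 4.64 ± 0.62 on the log2 scale (adjusted p = 0.000534 by limma). It was 3.59 without replicate 2, 5.74 without replicate 3 and 3.66 when 50 was added to each signal. Of the 3 control arrays, 1 was not above background.

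Hp encodes haptoglobin, which binds free haemoglobin. Controls gave 89.8, 118.9 and 103.0, and treated arrays 633.0, 3211 and 209.3. The groups did not overlap, but controls lay within 1.32-fold of each other and treated arrays within 15.3-fold. The log2 change was 2.87 ± 0.54 (adjusted p = 0.0036 by limma), 1.92 without replicate 2 and 3.79 without replicate 3.

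Lcn2 encodes lipocalin 2, which withholds iron from bacteria by binding their siderophores. It went from 110.2, 138.8 and 178.0 to 387.1, 447.7 and 219.6. The groups did not overlap, and the treated array of replicate 3 was the lowest and came closest to its control. By pair the treated culture was 3.51-fold, 3.23-fold and 1.23-fold above its control. The log2 change was 1.27 ± 0.30 (adjusted p = 0.00982 by limma). The call was lost without replicate 1 (1.0, adjusted p = 0.0725) and without replicate 2 (1.06, adjusted p = 0.0843), and the change was 1.75 without replicate 3; over the other 15 alternatives the adjusted p ran from 0.000638 to 0.0843.

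Ttr encodes transthyretin, the carrier of thyroid hormone and of retinol-binding protein, and is a negative acute phase protein in plasma. Its controls gave 995.9, 1725 and 349.8, and its treated arrays 7129, 12962 and 1348. The groups overlapped, because the treated array of replicate 3 lay below the control of replicate 2. Within each pair, however, the treated culture was higher, by 7.16-fold, 7.51-fold and 3.85-fold. With pairs the log2 change was 2.57 ± 0.18 (adjusted p = 1.5e-05 by limma), and without them 2.57 ± 0.77 (adjusted p = 0.0256; 7.2e-06 to 0.0947 over the 15 alternatives other than leaving out replicate 3). Without replicate 3 the change was 2.87. In the fit without pairs the call was lost without control 1 (2.68, adjusted p = 0.052), control 3 (1.93, adjusted p = 0.0869), dexamethasone 1 (2.31, adjusted p = 0.085) or dexamethasone 2 (1.88, adjusted p = 0.0947), and without dexamethasone 3 the change was 3.51.

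Rbp4, the partner of transthyretin that carries retinol, was below background on all 6 arrays, with signals of 8.9, 7.4 and 8.3 in controls and 51.1, 58.5 and 50.7 with dexamethasone. No fold is given at such levels. With no filter on low signals limma placed it among the genes that were higher (adjusted p = 0.00598), where 10.2% of 10411 genes were.

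Cp encodes ceruloplasmin, the copper ferroxidase of plasma, and had 3 probe sets, none of which was tested. The brightest gave 18.9, 73.7 and 14.7 in controls, all at background, and 101.7, 139.5 and 25.3 with dexamethasone, of which 2 were above it. The groups overlapped. The other 2 were not above background on any array. The first of them gave 5.4, 18.0 and 5.2 in controls and 24.2, 32.9 and 35.9 with dexamethasone, without overlap. The last gave 36.1, 23.5 and 28.4 and then 56.0, 44.7 and 10.8, which overlapped. With no filter on low signals the adjusted p by limma was 0.0816 for the brightest, 0.0469 for the next and 0.961 for the last.

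Clu encodes clusterin, an extracellular chaperone. Controls gave 504.5, 553.4 and 444.2, and treated arrays 1930, 1600 and 1465. The groups did not overlap and both were tight, with treated arrays within 1.32-fold of each other. The log2 change was 1.73 ± 0.14 (adjusted p = 2.9e-05 by limma) and stayed at 1.73 without replicate 3. A second probe set of Clu was not above background on any array (7.4 to 29.6 over the 6 arrays).

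Among the protease inhibitors, Serpina1, which encodes alpha-1 antitrypsin, the inhibitor of neutrophil elastase, gave 838.6, 1164 and 443.4 in controls and 1852, 2714 and 820.2 with dexamethasone. The groups overlapped, since the treated array of replicate 3 lay below controls 1 and 2. By pair the treated culture was 2.21-fold, 2.33-fold and 1.85-fold higher. The log2 change was 1.08 ± 0.13 with pairs (adjusted p = 0.000317 by limma), and without pairs 1.08 ± 0.43, which did not pass (adjusted p = 0.0753; 0.000222 to 0.247 over the same 15 alternatives). Without replicate 3 it was 1.18. In the fit without pairs it was also short of the threshold without control 1 (1.16), control 2 (1.39), control 3 (0.70), dexamethasone 1 (0.98) or dexamethasone 2 (0.70), and passed without dexamethasone 3 (1.57, adjusted p = 0.00526 by limma). With all 6 arrays its call thus rests on the pairing.

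A2m encodes alpha-2-macroglobulin, a broad protease trap that is a strong acute phase protein of the rat. It gave 1131, 764.5 and 973.7 in controls and 1222, 993.4 and 330.8 with dexamethasone, so that the groups overlapped and the treated array of replicate 3 was the lowest of the 6. The log2 change was -0.36 ± 0.32 (adjusted p = 0.416 by limma). Treated cultures were higher in 2 of 3 pairs, and without replicate 3 the change was 0.24.

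Ambp, whose precursor is cut into alpha-1-microglobulin, a haem-binding lipocalin, and bikunin, a protease inhibitor, was the 1 gene of the group to fall. It went from 726.7, 1291 and 506.7 to 269.1, 403.8 and 265.4, and the groups did not overlap. The log2 change was -1.35 ± 0.18 (adjusted p = 0.000487 by limma), lower in 3 of 3 pairs, and -1.56 without replicate 3.

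**Figure D2:**
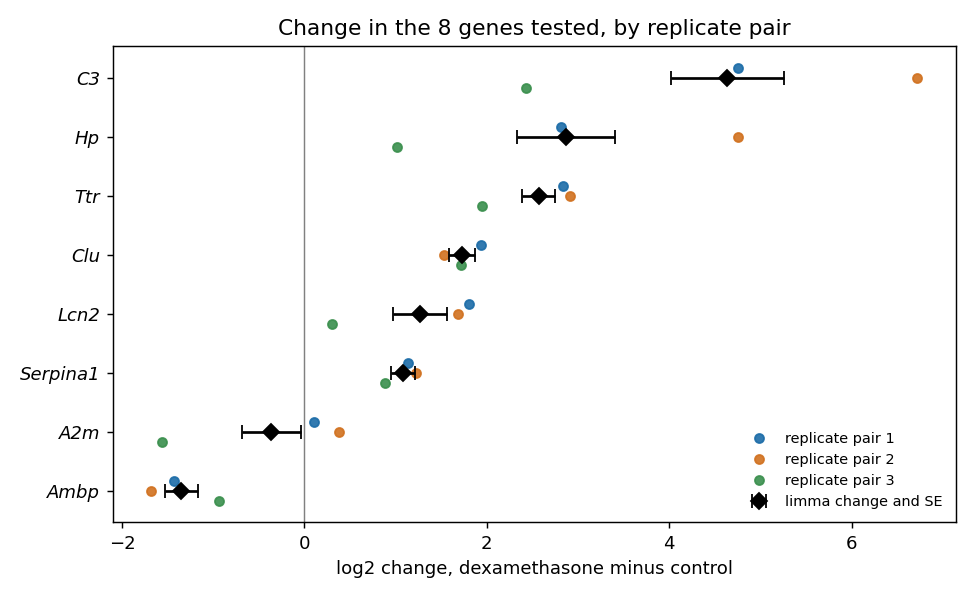
Log2 change (dexamethasone minus control) of the 8 genes tested. Circles are the 3 replicate pairs and diamonds the limma estimate with its SE; C3 and Hp differ widely between pairs, while Clu and Serpina1 lie close together.

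The cultures of a group differed more in most of these genes than in the typical gene. The median within-group SD over tested probe sets was 0.15 (log2) in controls and 0.20 with dexamethasone. For Ttr it was 1.17 and 1.69, larger than in 99.9% of tested probe sets in either group. Serpina1 had SDs of 0.71 (99.3%) and 0.88 (99.1%). C3 had 0.57 (98.5%) and 1.77 (99.9%), A2m 0.29 (85.5%) and 1.01 (99.4%), and Ambp 0.68 (99.1%) and 0.34 (81.0%). The controls of C3 were near background and under the filter on low signals (147.6), so its control share is not a like comparison. Hp had an SD of 0.20 in controls (68.8%) and of 1.98 with dexamethasone. Lcn2 (0.35 and 0.54) was at 91.2% and 94.9%, and Clu (0.16 and 0.20) was near the middle of the distribution, at 54.9% and 51.5%.

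The treated array of replicate 3 was the lowest of the treated arrays for 8 of the 8 tested genes, against 31.4% of all tested probe sets and 36.2% of those that rose. That of replicate 2 was the highest for 6 of the 8, against 27.0% and 32.3%. Both held for 6 (C3, Hp, Ttr, Lcn2, Serpina1 and Ambp), against 14.9% of tested probe sets. In controls 4 of the 8 (Ttr, Serpina1, Ambp and Clu) had replicate 2 highest and replicate 3 lowest, against 18.4%, and 3 (Ttr, Serpina1 and Ambp) kept this order in both groups, against 3.52%. Ttr deviated from its group mean by 0.24, 1.03 and -1.27 in the controls of replicates 1 to 3 and by 0.51, 1.38 and -1.89 in their treated arrays, and Serpina1 by 0.15, 0.62 and -0.77 and by 0.21, 0.76 and -0.97. C3 did not share the order in controls (0.42, -0.65 and 0.23), where its signal was near background, but did with dexamethasone (0.54, 1.43 and -1.97). The ratio of the 3′ to the 5′ actin probe set, a measure of RNA integrity, was 1.50, 1.27 and 1.28 in the controls of replicates 1 to 3 and 1.46, 1.19 and 1.69 in their treated arrays, and that of GAPDH 0.97 to 1.07 over the 6 arrays. The part of RNA integrity, or of separate experiments, in the order of the arrays was not tested. Genes of one culture share its array and RNA, so these counts describe 6 arrays and not 8 independent genes.

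**Figure D3:**
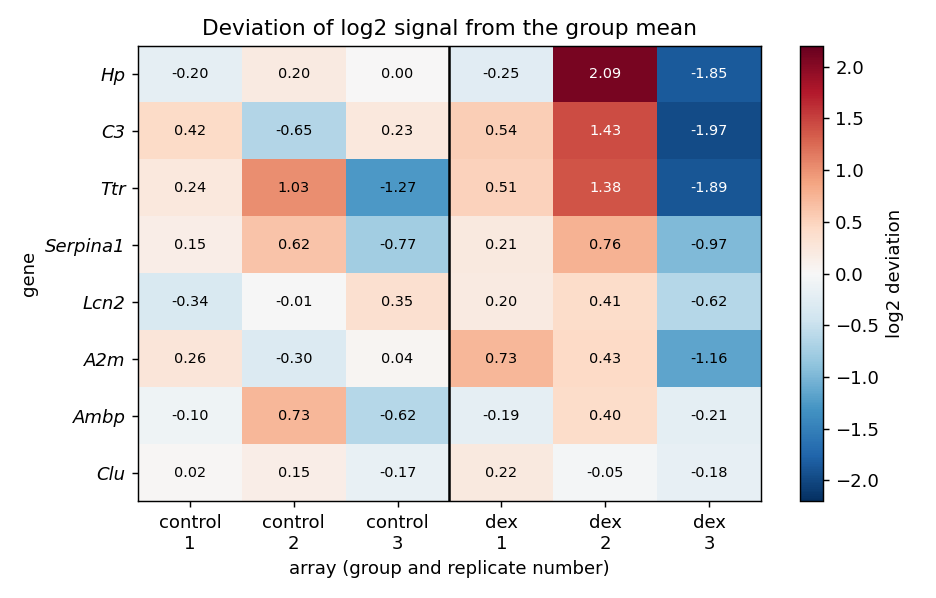
Deviation of log2 signal from the mean of its group, for the 8 tested genes (rows) on the 6 arrays (columns), with the value in each cell. The column of dexamethasone 3 is negative in all 8 rows, from -0.18 for Clu to -1.97 for C3, and Ttr, Serpina1 and Ambp are positive in control 2 and negative in control 3.

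Among the 8 tested genes Hp had the largest spread over treated arrays, and the genes whose deviations lay nearest to its own over the 6 arrays were Lgals1, Plg, Igfbpl1, Ifi27l2b and Apoa1, out of 7050 genes. Their root mean square distances were 0.31 to 0.55 (log2). They were picked for the smallest distances, so lying under the median of 1.17 over all genes was fixed by the choice. Lgals1, which encodes galectin 1, went from 422.7, 509.1 and 422.0 to 61.5, 159.0 and 18.9, so its mean fell while its deviations ran alongside those of Hp. Its signals on dexamethasone 1 and 3 were below background (100.2 and 115.9), which makes its deviations and its rank uncertain. Igfbpl1 (115.8) and Ifi27l2b (61.6) were not above background on dexamethasone 3 either. Plg, which encodes plasminogen, gave 568.1, 545.5 and 343.9 and then 804.4, 1578 and 277.2. Apoa1, the main apolipoprotein of high-density lipoprotein, gave 160.1, 310.2 and 133.3 and then 3073, 6149 and 1100. Among the 10 genes followed here the nearest was C3, at rank 11 (0.61), followed by Ttr at rank 37 and Serpina1 at rank 41, while Clu was at rank 2422.

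Other plasma protein genes and their receptors and signalling were examined through 6 lists with 187 genes, of which 140 were on the array and 68 bright enough to test. Of the 68, 27 rose, 5 fell and 36 did not pass, with a median log2 change of 0.36 against -0.05 over all tested probe sets. Over all genes tested, 17.0% rose and 21.4% fell. Without control 3, the fit without pairs gave 20 that rose and 3 that fell. Scaling arrays to the hybridization controls moved the median of all probe sets to -0.29. With it 21 rose and 9 fell, against 8.84% and 34.5% of all genes tested. Some risers, such as Cebpb and Pros1, had control means under the filter on low signals and entered through their treated arrays. In the other direction, C1s and Slc22a17, which fell, had treated means under it. The lists were also chosen with earlier results of these data known. The counts here and for each list below are thus no independent support.

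**Figure D4:**
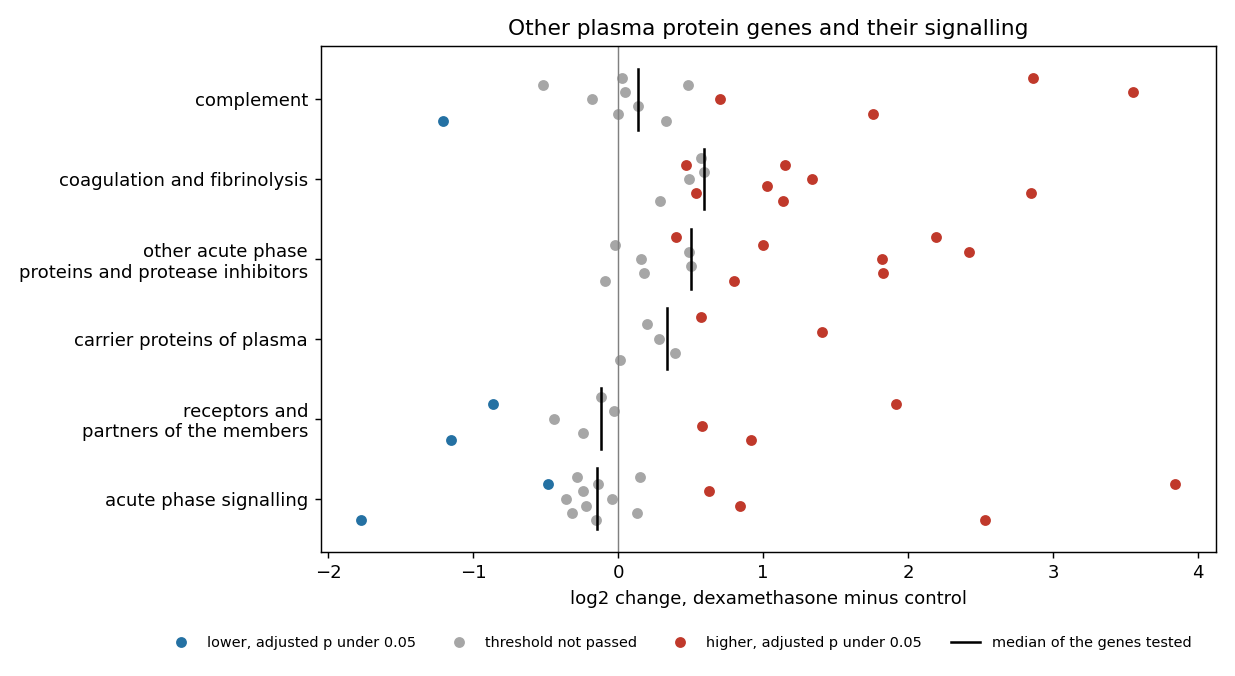
Log2 change (dexamethasone minus control) of each tested gene in the 6 lists, coloured by limma call, with the median of each list as a vertical line. The medians run from -0.14 for acute phase signalling to 0.59 for coagulation and fibrinolysis, and most genes past the threshold lie above 0.

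Of 13 complement genes tested, 4 rose, 1 fell and 8 did not pass (median 0.14), against 17.0% and 21.4% of all genes. Cd59b, a membrane inhibitor of the terminal complement complex, rose from 372.1 ± 46.5 to 4394 ± 930 (SD, n = 3; log2 change 3.55 ± 0.15, adjusted p = 1.2e-06 by limma). Serping1, the inhibitor of the C1 proteases, rose from 743.5 ± 81.5 to 5423 ± 1002 (2.86 ± 0.13, adjusted p = 1.6e-06 by limma), and Cfi, the protease that inactivates C3b, from 249.3 ± 48.0 to 899.0 ± 414.4 (1.76 ± 0.19). C1s, a protease of the C1 complex, fell from 287.3 ± 44.7 to 125.9 ± 29.2 (-1.21 ± 0.21, adjusted p = 0.00204 by limma). The fourth riser, C9 of the membrane attack complex, was named after its value was seen and passed narrowly (0.70 ± 0.24, adjusted p = 0.0491 by limma). Its call was lost without replicate 1 (0.71), and its change was 0.41 without replicate 3. The call of C9 was also lost with no filter on low signals (adjusted p = 0.107 by limma), with scaling to the hybridization controls and with no intensity trend. The fit without pairs lost the call without control 1 (0.65), control 3 (0.56), dexamethasone 1 (0.76) or dexamethasone 3 (0.55). Without replicate 2, 2 complement genes fell, as in the fit without pairs without dexamethasone 2.

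Of 11 coagulation and fibrinolysis genes tested, 7 rose, 0 fell and 4 did not pass (median 0.59), against 17.0% and 21.4% of all genes. By the fit without pairs 6 rose and 0 fell, and 4 rose when control 1 or control 3 was left out of it. With scaling to the hybridization controls 5 rose. F2, which encodes prothrombin, rose from 383.1 ± 66.8 to 3079 ± 1642 (2.85 ± 0.23, adjusted p = 2.9e-05 by limma), with treated signals of 3216, 4648 and 1373. Serpinf2, the inhibitor of plasmin, rose by 1.34 ± 0.16, Proc, the anticoagulant protein C, by 1.15 ± 0.11, and F10, clotting factor X, by 1.14 ± 0.18. F2, F10 and Serpinf2 shared the feature of Ttr that dexamethasone 2 was highest and dexamethasone 3 lowest. This order held for 14.9% of all tested probe sets, and Proc did not have it. Among the genes named from other lists, Cfi, Hpx, Agt and Serpina6 had it, while Serping1, Cd59b, Azgp1 and Mt2A were highest on dexamethasone 3. The call of F10 was lost in the fit without pairs when control 1 (1.06) or control 3 (1.05) was left out.

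Of 13 other acute phase proteins and protease inhibitors, 7 rose, 0 fell and 6 did not pass (median 0.50). The shares of all genes tested were 17.0% and 21.4%. Hpx, which encodes the haem scavenger hemopexin, rose from 1846 ± 505 to 8381 ± 1951 (2.19 ± 0.10, adjusted p = 1.6e-06 by limma). Agt, angiotensinogen, rose from 193.6 ± 51.8 to 1118 ± 568 (2.42 ± 0.20), and Azgp1, zinc alpha-2-glycoprotein, from 207.9 ± 37.5 to 741.6 ± 195.3 (1.82 ± 0.23). Mt2A, a metallothionein, rose by 1.83 ± 0.11. Crp, C-reactive protein, gave 734.3 ± 89.2 and 703.1 ± 188.3 and did not pass (-0.09 ± 0.17, adjusted p = 0.728 by limma); it was named after its value was seen, as was Ahsg, fetuin A, a negative acute phase protein (-0.02 ± 0.21).

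Of 6 plasma carrier genes tested, 2 rose, 0 fell and 4 did not pass (median 0.33), against 17.0% and 21.4% of all genes. The 2 that rose were Serpina6, which encodes the corticosteroid-binding globulin of plasma (2787 ± 726 to 7594 ± 2684, 1.41 ± 0.12, adjusted p = 3.2e-05 by limma), and Selenop, a selenium carrier (6193 ± 466 to 9251 ± 1257, 0.57 ± 0.10). At an unadjusted limma p under 0.05, 0 carrier, 0 coagulation and 0 other acute phase genes were lower. With no filter on low signals 3 carriers rose. The third was Ptgds, which encodes a prostaglandin synthase that also carries lipophilic ligands and was named after its values were seen. It gave 24.2, 40.5 and 12 in controls, all below background, and 784.4, 1038 and 1064 with dexamethasone, and its mean lay just under the filter. It was at least 14.7-fold higher, a bound that sets the treated mean against the controls at background level (adjusted p = 0.000157 by limma with no filter).

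Of 9 receptors and partners of the plasma proteins tested, 3 rose, 2 fell and 4 did not pass (median -0.12). The shares of all genes tested were 17.0% and 21.4%. Slc40a1, ferroportin, the iron exporter whose work ceruloplasmin supports, rose by 1.92 ± 0.30 (1 of 3 control arrays was at background), and its other tested probe set by 1.37 ± 0.32. Lrp1, a receptor that clears complexes of alpha-2-macroglobulin, rose from 214.0 ± 16.5 to 405.4 ± 6.4 (0.92 ± 0.17). Sort1, a sorting receptor, fell by 1.15 ± 0.22 on the log2 scale. Slc22a17, a receptor of lipocalin 2, fell from 221.9 ± 26.5 to 124.9 ± 36.7 (-0.86 ± 0.22), a call lost without replicate 1 (-0.83) or replicate 2 (-0.76), and in the fit without pairs without control 3 (-0.77), dexamethasone 1 (-0.78) or dexamethasone 2 (-0.71). The third riser was Hmox1, the haem-degrading enzyme, named after its value was seen (0.58 ± 0.19, adjusted p = 0.0358 by limma). Its call was lost without replicate 1 (0.50) or replicate 2 (0.71), and its change was 0.54 without replicate 3. The fit without pairs lost the call when any array but control 2 was left out (0.47 to 0.63).

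Of 16 acute phase signalling genes tested, 4 rose, 2 fell and 10 did not pass (median -0.14), against 17.0% and 21.4% of all genes. The number that fell was 3 in the fit without pairs, 1 without control 3 in that fit and 4 with scaling to the hybridization controls. Cebpb, the C/EBP factor of the acute phase response, gave 97.3, 122.3 and 83.4 in controls and 1162, 1723 and 1449 with dexamethasone (3.84 ± 0.17, adjusted p = 1.4e-06 by limma), and Nfkbia, the inhibitor of NF-kB, rose from 232.2 ± 38.1 to 1332 ± 109 (2.53 ± 0.17). Hnf4a, a liver-enriched factor, rose by 0.84 ± 0.16. Onecut1, a liver and pancreas factor, fell from 892.1 ± 123.3 to 260.7 ± 20.1 (-1.77 ± 0.16, adjusted p = 6.4e-05 by limma), and its second tested probe set fell too (-1.34 ± 0.24).

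The other 2 signalling genes past the threshold, and the genes that follow, were named after their values were seen. Tnfrsf1a, a receptor of tumour necrosis factor, rose by 0.63 ± 0.13 (adjusted p = 0.00546 by limma), a call lost in the fit without pairs without control 2 (0.65), control 3 (0.51), dexamethasone 1 (0.46) or dexamethasone 2 (0.62). Nr3c1, the glucocorticoid receptor, went from 1802 ± 215 to 1284 ± 76.0 (-0.48 ± 0.13, adjusted p = 0.0157 by limma). Its call was lost without replicate 1 (-0.42), and its change was -0.45 without replicate 3. The fit without pairs lost the call without control 1 (-0.46) or control 3 (-0.41). Its other tested probe set did not pass (-0.47 ± 0.25). In the interleukin 6 pathway, Il6r, the ligand-binding receptor chain, was below background in controls (11.9, 1.8 and 24.4) and gave 574.9, 610.6 and 481.0 with dexamethasone, at least 8.51-fold higher. Socs1, an inhibitor of cytokine signalling, went from 6.3, 30.2 and 22.5, below background, to 375.4, 280.7 and 228.6, at least 4.45-fold higher, while its other probe set was below background on all 6 arrays. Jak2, a kinase of cytokine receptors, was above background in 3 controls (91.3, 103.0 and 117.2) and in 0 treated arrays (35.8, 13.2 and 36.6), at least 1.04-fold lower. None of these 3 passed the filter on low signals. With no filter limma gave them an adjusted p of 0.00146, 0.00267 and 0.0193, and 10.2% of genes rose and 13.7% fell. Stat3 (-0.14 ± 0.13), Il6st, the shared receptor chain of interleukin 6 (0.13 ± 0.14), and Socs3, the feedback inhibitor of this pathway (-0.22 ± 0.19), did not pass.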

How the data were processed

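AR42J RNA was measured on 6 Affymetrix arrays, 3 control and 3 dexamethasone, grouped by sample title. The authors deposited 1 MAS5 signal per probe set and array, a linear intensity for which the submitters' processing notes name MAS5 and GCOS; scaling settings and detection calls are not given in the sources used here. The design text calls the cultures pairs, so the replicate number was a block. Deviations of same-numbered arrays correlated at -0.10, 0.11 and 0.21 over tested probe sets, and only control 3 correlated best with its own number (control 2 reached 0.18 with dexamethasone 1, control 1 0.10 with dexamethasone 3). The numbers are thus poorly backed by the data, and values without pairs are printed where they change a call.

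Of 15923 probe sets, 57 controls were left out. Names came from the platform annotation (12783 with 1 symbol, 312 with several, 2771 unnamed), updated by gene identifier through RefSeq. Signals of 0 (4 values) were set to 0.1 before log2. Probe sets at or above the 40th percentile of mean log2 signal (147.6) were tested in R 4.3.3 with limma 3.58.1, using lmFit and eBayes (intensity trend); p-values were adjusted by Benjamini-Hochberg at a threshold of 0.05. The fit was tested on simulated data to which a shared effect of replicate number was added. It recovered 56% of log2 changes of 1 and 86% of those of 2, and 3.4% of its calls were false. The simulation changed far fewer probe sets than were called in the data (1512 higher and 2019 lower). Its added effect also suits the block, which the data back poorly. These shares may thus not hold for the data. A gene that did not pass may still have changed. A gene was counted by its brightest probe set.

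Genes named were all 10 plasma protein genes, the 4 largest changes past the threshold in each list, and the 5 genes nearest in deviations to the one with the largest treated spread. Genes named outside this rule are said to be so, or are cell type markers. The members and lists were chosen with earlier results of these data known.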

Additional observations from a re-analysis of the deposited data

How the results depend on the processing

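The direction and call of C3, Hp, Clu and Ambp were kept in all 16 alternatives, of which the fit without replicate 3 measures no error of single genes: no block, 3 other scalings, no filter, a pseudocount of 50, no intensity trend, and each replicate pair or array left out. Without the replicate block Serpina1 did not pass (1.08, adjusted p = 0.0753), the 1 call among the 10 genes that dropping the pairing of all 6 arrays changed. With replicates or arrays left out, the log2 change was 1.88 to 3.51 for Ttr, 1.0 to 1.75 for Lcn2, 0.70 to 1.57 for Serpina1 and -0.72 to 0.24 for A2m, whose sign turned without replicate 3 (0.24) or dexamethasone 3 (0.22), and the count of other plasma protein genes that fell was 3 to 5. In the fit without pairs, Ttr did not pass without control 1 (2.68), control 3 (1.93), dexamethasone 1 (2.31) or dexamethasone 2 (1.88), nor did Serpina1 without control 1 (1.16), control 2 (1.39), control 3 (0.70), dexamethasone 1 (0.98) or dexamethasone 2 (0.70). With scaling to the hybridization controls that count was 9 instead of 5, and over all probe sets 778 were higher and 3257 lower instead of 1512 and 2019; the cause was not tested beyond the shift of all probe sets given above. With centring on the 75th percentile 2037 were higher and 1503 lower. With no filter 7 of the 10 genes rose, Rbp4 included, and with all probe sets of a gene averaged 5 rose, since Clu, averaged with its dim probe set, was no longer tested. Low signals limit Rbp4, Cp and the controls of C3.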
